A study of Homo sapiens with 6 samples.

Results

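HOX genes encode the homeodomain transcription factors that assign position along the body axis, and 39 of them were measured in these libraries. They were taken by symbol, as every gene of the series' count table named HOXA, HOXB, HOXC or HOXD followed by a number, and they made up 39 of the 55767 genes with a symbol. The HOXA cluster on chromosome 7 held 11 members within 107 kb, the HOXB cluster on chromosome 17 held 10 within 200.2 kb, the HOXC cluster on chromosome 12 held 9 within 117 kb and the HOXD cluster on chromosome 2 held 9 within 98.2 kb (GRCh38, Gencode 44). All members of a cluster are transcribed in the same direction, on the minus strand for HOXA and HOXB and on the plus strand for HOXC and HOXD. Of the 39 genes, 38 had at least 10 reads over the 6 libraries and were tested. HOXB1, which acts in the hindbrain, had 0 reads in every library, which allows a level of up to 0.0935 to 0.238 CPM (reads per 1e+06 reads on genes after TMM scaling of the library size) depending on the library.

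The number in a HOX gene's name is its paralog group. Genes with the same number in different clusters descend from one ancestral gene and share much of their DNA-binding domain, and the order of the genes along the chromosome follows the order in which they are used along the embryo. Low numbers lie at the 3′ end of a cluster and act in the hindbrain and neck, and high numbers lie at the 5′ end and act in the trunk, limbs, kidney and urogenital tract. Cultured lines tend to keep the HOX pattern of their tissue of origin, which Polycomb and Trithorax group complexes maintain through histone methylation.

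The libraries came from HEK293T, a human embryonic kidney line with the large T antigen of SV40, called HEK293 in the study's text, grown in DMEM with 10% FBS. All cells carried a lentiviral short-hairpin construct, a control hairpin in the 3 sh-control libraries and a hairpin against RREB1, a zinc finger repressor, in the 3 libraries labelled sh-RREB1, in stable lines made by neomycin selection. The labels do not say whether replicates were separate cultures or clones, so p-values measure the spread between these libraries, which may be technical. The sh-control libraries held 23362197 to 33044061 reads on genes and the libraries labelled sh-RREB1 12257054 to 26145878, where replicate 3 was the shallowest and 52.1% of its aligned reads were multimapping. The level of RREB1 was 27.2, 25.2 and 26.6 CPM in sh-control, against 23.7, 24.6 and 23.2 CPM in the other group, a log2 fold change of -0.14 (standard error, SE, 0.13, adjusted p = 0.486 by edgeR). The groups did not overlap but lay close together, so the targeted transcript was not clearly reduced, and every direction below rests on the labels. In bulk RNA a lower level in all cells and a smaller number of expressing cells cannot be told apart.

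Levels between genes were compared as CPM per kilobase of exon, the CPM of a gene divided by the length of its merged exons. The highest members were HOXA5 at 43.4 and HOXB9 at 42.9 CPM per kb averaged over the 6 libraries, a pattern factor of the neck and lung and a trunk and limb factor. HOXA10 followed at 31.4, HOXD13 at 30.1, HOXD10 at 23.0, HOXA11 at 21.0 and HOXA9 at 19.7 CPM per kb, all members of paralog groups 9 to 13. HOXA13, HOXC9 and HOXB6 were at 11.5, 10.2 and 9.15 CPM per kb. Of these 10 genes, 8 belonged to paralog groups 9 to 13, and those groups held 73.2% ± 0.460 (SD, n = 3) of the HOX reads in sh-control.

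**Figure D1:**
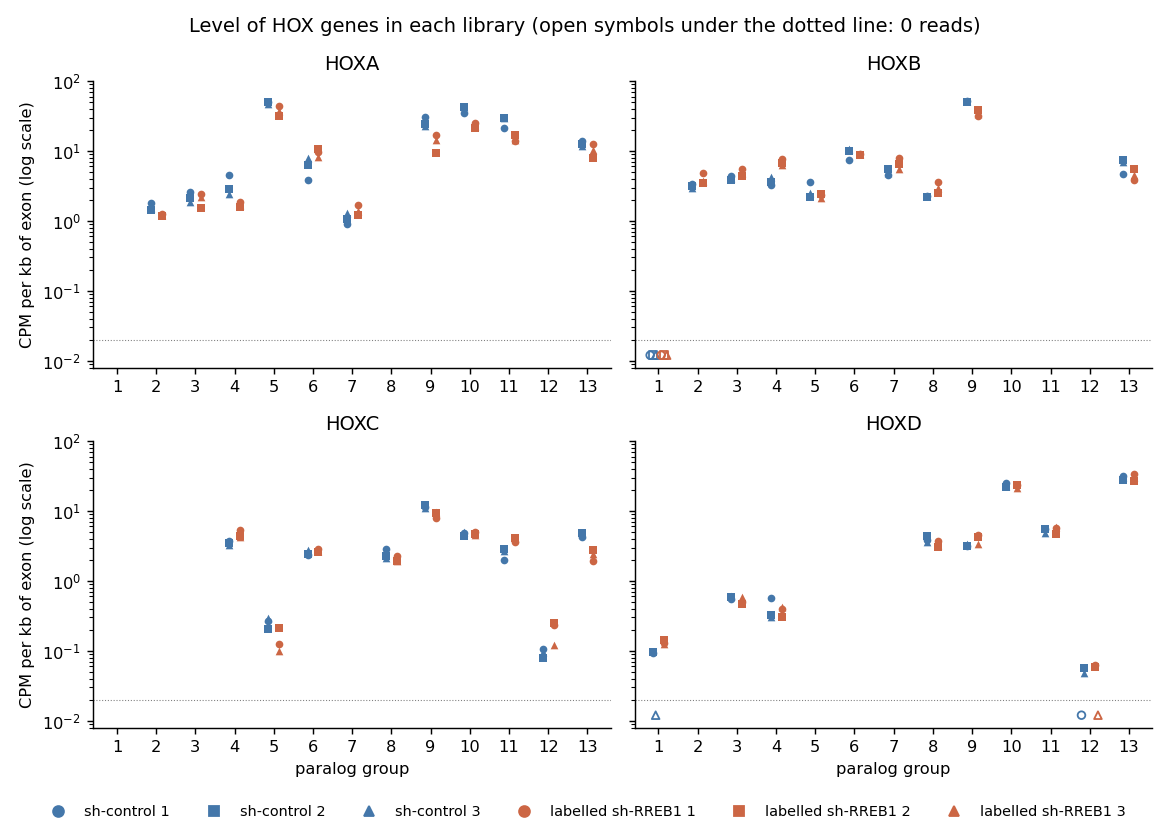
Level of 38 HOX genes in each library, in CPM per kilobase of exon on a log scale, against its paralog group, with a panel for each cluster. Blue symbols are sh-control and orange symbols the libraries labelled sh-RREB1, circles, squares and triangles are replicates 1, 2 and 3, and open symbols mark 0 reads. HOXA5 and HOXB9 stand at about 40 CPM per kb, while HOXC12, HOXD1 and HOXD12 lie at or below 0.3 in every library.

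The lowest members were HOXC5, HOXC12, HOXD1 and HOXD12, at 0.200, 0.147, 0.0977 and 0.0379 CPM per kb. The HOXC5 value rests on few countable bases, since 67.3% of its exonic length is shared with other genes on the same strand, and reads there are counted for no gene. Over countable exon alone it was at 0.613 CPM per kb. With countable length used for all members, the same 10 genes were the highest. Across the 38 detected genes, level per length was higher in higher paralog groups (Spearman's rho 0.33 across genes, a description only, since genes of a cluster share their libraries and their neighbours).

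The libraries labelled sh-RREB1 were set against sh-control, and 0 of the 38 HOX genes were called in this comparison. A call needed a log2 fold change beyond 1 in either direction together with an adjusted p under 0.01 in edgeR's quasi-likelihood test, and 3.41% of the 23304 genes tested met both. At an unadjusted p below 0.05 there were 16 HOX genes of 38, against 34.4% of all genes tested. DESeq2 also called 0 HOX genes, and 1647 of all 23304 genes. HOXA10, HOXC13 and HOXB4 had an adjusted p below 0.01 and missed only the fold change. At an adjusted p below 0.05 with no minimum fold change, 7 HOX genes were lower, among them HOXA4, HOXA9, HOXA10, HOXA11, HOXB9 and HOXC13, against 8.81% of all genes tested. At that threshold 2 were higher (HOXB4 and HOXC11), against 10.8% of all genes. The share of lower members, 7 of 38, lay above that background and the share of higher members below it.

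**Figure D2:**
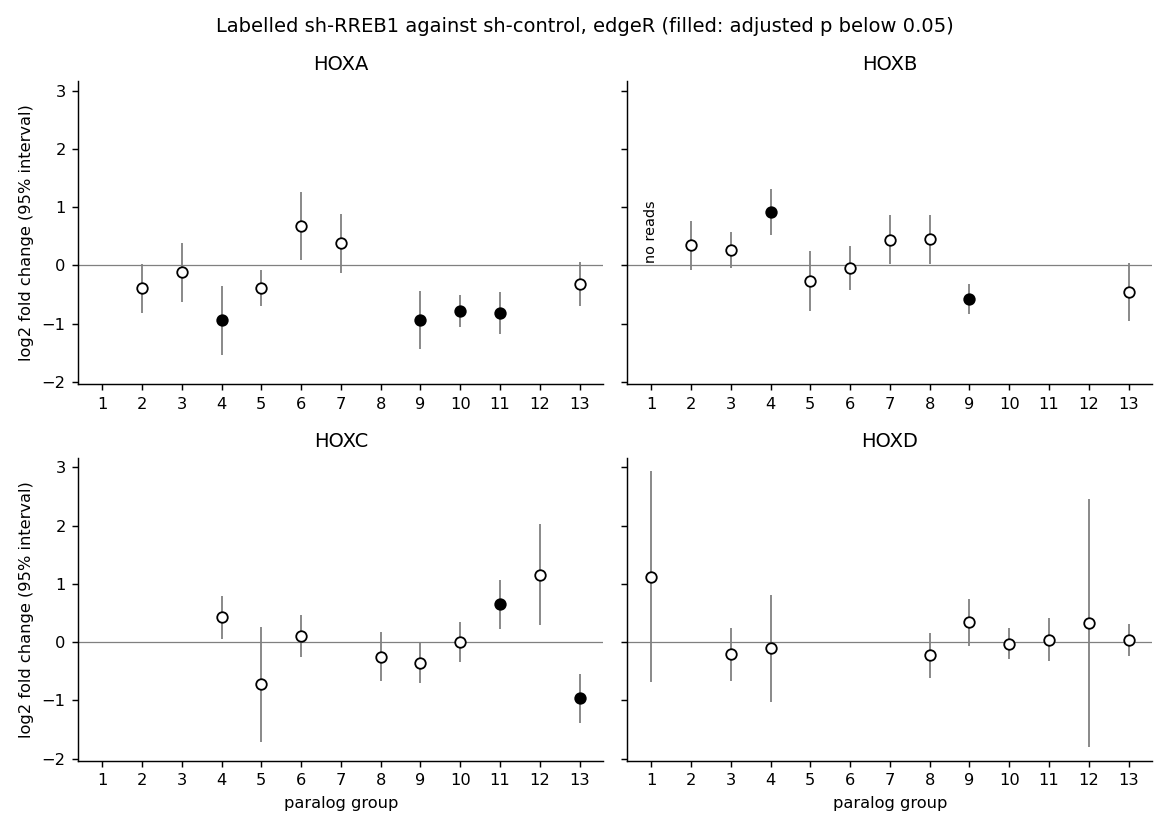
Log2 fold change of the libraries labelled sh-RREB1 over sh-control for 37 of the HOX genes tested with edgeR, against paralog group, with a panel for each cluster and bars for the 95% confidence interval. Filled points have an adjusted p below 0.05. In HOXA 8 of 10 points lie below 0 and 4 are filled, while in HOXD no point is filled.

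The median log2 fold change of the HOX genes was -0.08, with 17 higher and 21 lower, beside 0.01 for all genes tested. The groups did not overlap in 20 HOX genes, with 10 higher and 10 lower, compared to 21.1% and 20.0% of all genes tested. Of the 9 genes with an adjusted p below 0.05, HOXA10 stayed below it with each library left out in turn, and the others did not. Without sh-RREB1 replicate 3, the multimapping library, HOXB4 and HOXA10 remained below 0.05, and without sh-control replicate 2 HOXA10, HOXB9 and HOXC13 did. In all genes tested, 794 were called, and 8 without sh-RREB1 replicate 3.

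The clusters had different medians, and the difference between them was not tested. The median log2 fold change was -0.39 in HOXA, with 9 of 11 genes lower, 0.26 in HOXB, 0.00 in HOXC and 0.04 in HOXD, and all 4 were negative with the offset for GC content described below. HOXA held 5 of the 7 lower genes at an adjusted p below 0.05, a threshold at which 8.81% of all genes tested were lower. Within HOXA the lower genes lay on both sides of HOXA6 and HOXA7, which had positive log2 fold changes of 0.68 and 0.38 (adjusted p of 0.0953 and 0.264 by edgeR). With the offset HOXA6 and HOXA7 were at -0.19 and 0.00560, and 10 of the 11 HOXA genes were lower.

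HOXA9, HOXA10 and HOXA11 are neighbours at the 5′ end of the cluster, from 27162438 to 27185232 on chromosome 7, and are known for their parts in blood progenitors (HOXA9), in the uterus (HOXA10) and in kidney and limb (HOXA11). HOXA10 was at 129, 155 and 156 CPM in sh-control, against 94.0, 78.3 and 84.6 CPM under the sh-RREB1 label. All of the latter were below the lowest sh-control library, and the means were 147 ± 15.1 and 85.7 ± 7.89 CPM (SD, n = 3 each). The log2 fold change was -0.78 (SE 0.12, adjusted p = 0.00563 by edgeR), and with each library left out in turn it stayed between -0.89 and -0.72.

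HOXA11 was at 57.0, 77.7 and 79.8 CPM in sh-control, against 37.0, 45.4 and 38.9 CPM in the other group. Sh-control replicate 1 was the lowest of its group, and the groups did not overlap. The log2 fold change was -0.82 (SE 0.16, adjusted p = 0.0108 by edgeR). HOXA9 was at 91.4, 73.9 and 69.3 CPM in sh-control, against 52.1, 28.0 and 43.2 CPM under the sh-RREB1 label. Here sh-control replicate 1 was the highest library and sh-RREB1 replicate 2 the lowest, and the SDs were 11.7 and 12.2 CPM. The log2 fold change was -0.93 (SE 0.22, adjusted p = 0.0211 by edgeR). HOXA9 and HOXA10 share 15.9% and 9.93% of their exonic bases with other genes on the same strand, mostly a readthrough gene that spans both and that had 0 reads in every library, and reads in shared exons are in no gene's count.

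The bases upstream of the starts of these 3 genes are shown because the genes lie side by side and were lower together. Each window holds the 250 bases before a RefSeq start, read on the strand of the gene (minus, GRCh38.p14). Capitals mark the TATA box letters TATAAA, or their reverse complement TTTATA, the 2 forms searched. The HOXA9 window is chr7:27165538-27165787, the HOXA10 window chr7:27174321-27174570, before the start that lies nearest to HOXA9, and the HOXA11 window chr7:27185233-27185482. A second HOXA10 window, before the distal start, overlaps an annotated exon and is not shown.
HOXA9: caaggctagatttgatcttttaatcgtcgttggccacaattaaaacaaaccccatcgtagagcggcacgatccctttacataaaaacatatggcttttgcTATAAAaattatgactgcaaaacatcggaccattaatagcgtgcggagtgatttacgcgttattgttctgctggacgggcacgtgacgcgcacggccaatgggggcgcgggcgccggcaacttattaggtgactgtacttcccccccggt
HOXA10: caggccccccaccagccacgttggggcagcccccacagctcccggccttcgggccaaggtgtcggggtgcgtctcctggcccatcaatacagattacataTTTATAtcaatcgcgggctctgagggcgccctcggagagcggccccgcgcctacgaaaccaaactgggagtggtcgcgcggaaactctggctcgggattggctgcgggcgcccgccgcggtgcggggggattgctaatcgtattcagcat
HOXA11: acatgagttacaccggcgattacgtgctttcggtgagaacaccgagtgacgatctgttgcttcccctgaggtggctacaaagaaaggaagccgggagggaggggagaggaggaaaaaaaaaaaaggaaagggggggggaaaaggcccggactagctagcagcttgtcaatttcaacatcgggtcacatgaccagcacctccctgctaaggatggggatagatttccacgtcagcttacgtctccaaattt

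The HOXA9 window held TATAAA on the strand of the gene, the HOXA10 window shown held it on the other strand, and the HOXA11 window held neither form. The HOXA10 window that is not shown held TATAAA on the strand of the gene. The table of RefSeq starts used here covered 20 of the 39 HOX genes with 27 windows, of which 5 held the motif, compared to 10.7% of 35116 windows of the same length over all genes. The HOX windows had a median GC content of 58.8% and a median of 19 CG dinucleotides, beside 58% and 11 over all windows. A match of these letters is a description of the sequence and not a measured site.

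HOXA4, a gene of the 3′ part of the cluster that acts in the neck region of the axis, was also below 0.05. HOXA4 was at 7.92, 5.0 and 4.24 CPM against 3.26, 2.71 and 2.93 CPM, with a log2 fold change of -0.94 (SE 0.26, adjusted p = 0.0368 by edgeR). Its size rests partly on sh-control replicate 1, without which the log2 fold change was -0.67, and 31.3% of its exonic bases are shared with a readthrough gene on the same strand.

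**Figure D3:**
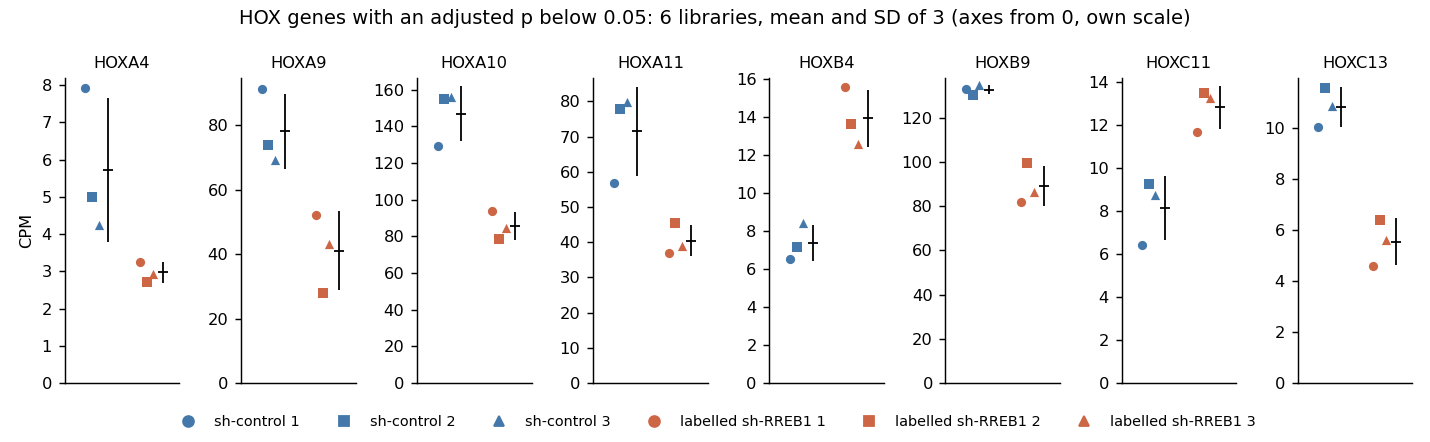
CPM of 8 of the HOX genes with an adjusted p below 0.05 in each of the 6 libraries, with the mean and SD of 3 libraries beside each group; each panel has its own axis from 0. Blue is sh-control and orange the libraries labelled sh-RREB1, with circles, squares and triangles for replicates 1, 2 and 3. The groups do not overlap in any of the 8 panels, which were chosen by a p-value from these same libraries. HOXB4 and HOXC11 are the panels with orange above blue.

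The highest HOXA gene, HOXA5, was at 86.4, 85.7 and 81.2 CPM in sh-control, against 75.5, 53.7 and 65.0 CPM in the other group. The groups did not overlap, but the libraries labelled sh-RREB1 spread over 10.9 CPM (SD), and the log2 fold change of -0.38 did not pass 0.05 (SE 0.14, adjusted p = 0.0845 by edgeR). HOXA13, a factor of the distal limb and the urogenital tract, was at 69.7, 64.3 and 60.2 CPM and at 62.8, 40.8 and 52.2 CPM. Its groups overlapped, and its log2 fold change was -0.32 (SE 0.16, adjusted p = 0.209 by edgeR). HOXA2 and HOXA3 had log2 fold changes of -0.39 and -0.12, with adjusted p of 0.176 and 0.765 by edgeR.

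In HOXB the sign differed between low and high paralog groups, and this difference was not tested. The 3 tested HOXB genes of groups 1 to 4, HOXB2, HOXB3 and HOXB4, had positive log2 fold changes of 0.34, 0.26 and 0.92. Their adjusted p was 0.233, 0.212 and 0.00975 by edgeR. With the offset described below they were at 0.07, 0.14 and 0.31, and 0 of them had an adjusted p below 0.05. Both genes of groups 9 to 13, HOXB9 and HOXB13, had negative log2 fold changes of -0.57 and -0.46. HOXB4, known in blood stem cells, was at 6.53, 7.18 and 8.42 CPM in sh-control, against 15.6, 13.6 and 12.6 CPM under the sh-RREB1 label. The lowest of the latter was above the highest sh-control library (SE 0.17, adjusted p = 0.00975 by edgeR). HOXB9 was at 133, 130.4 and 135 CPM in sh-control, with an SD of 2.25 CPM, and at 81.7, 99.3 and 86.3 CPM in the other group. Every library of that group was lower by more than the spread of the sh-control libraries (SE 0.11, adjusted p = 0.0104 by edgeR).

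HOXB6 was at 19.1, 25.9 and 27.6 CPM in sh-control, against 23.9, 23.0 and 23.5 CPM under the sh-RREB1 label. The second group lay within the range of the first, and the log2 fold change was -0.05 with a 95% interval from -0.42 to 0.33 (adjusted p = 0.875 by edgeR). HOXB5, HOXB7 and HOXB8 had log2 fold changes of -0.27, 0.44 and 0.45, and their edgeR adjusted p was 0.443, 0.128 and 0.122. Across the 9 tested HOXB genes the log2 fold change was lower in higher paralog groups (Spearman's rho -0.43, a description over 9 genes that share their libraries). The same coefficient was -0.06 in HOXA, 0.03 in HOXC and 0.13 in HOXD.

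In HOXC neighbouring genes at the 5′ end had opposite signs. HOXC13, which is needed for hair and nail, was at 10.1, 11.6 and 10.9 CPM in sh-control, against 4.59, 6.42 and 5.63 CPM under the sh-RREB1 label. The groups were well separated, and the log2 fold change was -0.97 (SE 0.18, adjusted p = 0.00993 by edgeR). Without sh-control replicate 1 it was -1.05, and HOXC13 was then called. HOXC11, a kidney and hindlimb factor, was at 6.44, 9.24 and 8.76 CPM against 11.7, 13.5 and 13.2 CPM, with every library of the second group above the first (log2 fold change 0.65, SE 0.19, adjusted p = 0.0400 by edgeR). HOXC12 lies between them and was near the limit of detection, at 0.348, 0.258 and 0.312 CPM against 0.766, 0.803 and 0.397 CPM from 70 reads in all. Its groups did not overlap, and its log2 fold change of 1.16 did not pass 0.05 (SE 0.38, adjusted p = 0.0654 by edgeR).

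HOXC9 was at 18.9, 20.5 and 18.2 CPM in sh-control, against 13.2, 15.3 and 16.3 CPM in the other group. The groups were separate by a small margin, and the log2 fold change was -0.36 (SE 0.15, adjusted p = 0.127 by edgeR). The other HOXC genes ran from -0.72 for HOXC5, from 50 reads, to 0.42 for HOXC4. HOXC10 had a log2 fold change of 0.00 with a 95% interval from -0.34 to 0.35.

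No HOXD gene reached an unadjusted p of 0.05, and the lowest edgeR adjusted p in the cluster was 0.210. With the offset described below, 8 of the 9 HOXD genes were lower. Of these, 3 (HOXD3, HOXD9 and HOXD11) then had an edgeR adjusted p below 0.05, against 11.7% of all genes tested. HOXD13, which shapes the digits, was at 75.6, 66.5 and 73.3 CPM in sh-control, against 82.9, 65.4 and 72.9 CPM under the sh-RREB1 label. The groups overlapped fully, and the log2 fold change was 0.04 with a 95% interval from -0.24 to 0.32. HOXD10 was at 62.7, 54.8 and 56.0 CPM against 58.1, 58.7 and 53.7 CPM. Its groups also overlapped, and its log2 fold change was -0.02 with an interval from -0.29 to 0.24. For these 2 well-covered genes a log2 difference beyond about 0.3 lay outside the interval. HOXD1 had a log2 fold change of 1.13 from 25 reads in all, at 0.174, 0.184 and 0 CPM against 0.242, 0.268 and 0.238 CPM. All of its values lay close to the 3-read limit of their library, and the interval ran from -0.68 to 2.93 (adjusted p = 0.360 by edgeR).

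Reads were also summed over each cluster. The HOXA genes together were at 486, 506 and 495 CPM in sh-control, against 369, 288 and 327 CPM under the sh-RREB1 label, and the groups did not overlap. The HOXB genes were at 239.9 ± 7.41 and 209 ± 7.58 CPM (SD, n = 3 each), and they did not overlap either, although the median over single HOXB genes was positive. The HOXC genes were at 74.3 ± 1.49 and 72.6 ± 0.603 CPM and the HOXD genes at 160.0 ± 7.95 and 161 ± 11.2 CPM, which overlapped in both clusters. All 39 genes together were at 970.1 ± 8.90 CPM in sh-control against 770.4 ± 49.8 CPM in the other group. HOXA supplied 51.1% ± 0.674 of the HOX reads in sh-control and 42.5% ± 2.64 in the libraries labelled sh-RREB1. These sums are weighted towards long and highly expressed genes and were not tested.

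**Figure D4:**
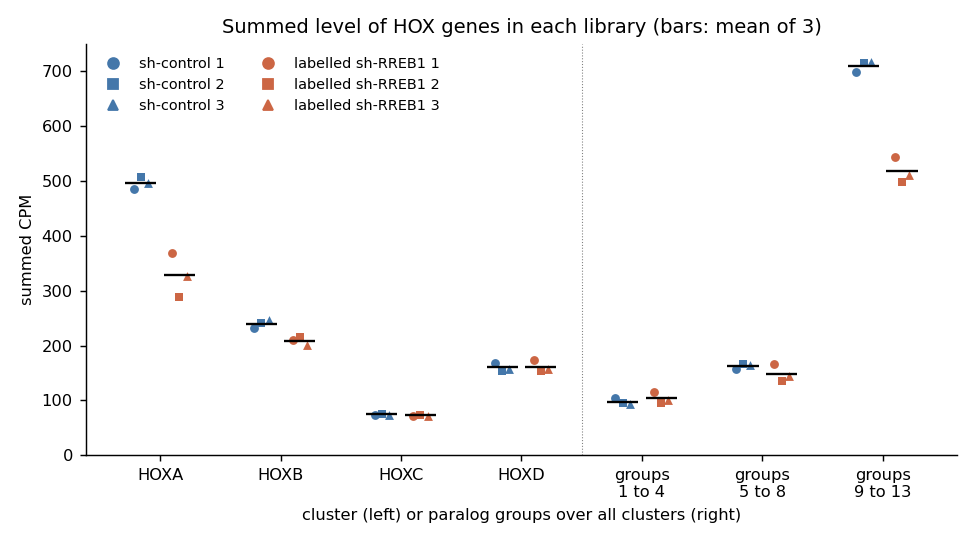
Summed CPM of HOX genes in each library, by cluster on the left and by paralog groups over all clusters on the right, with bars at the mean of 3 libraries. Blue is sh-control and orange the libraries labelled sh-RREB1, with circles, squares and triangles for replicates 1, 2 and 3. The wide gaps are in HOXA (496 against 328 CPM) and in paralog groups 9 to 13 (709.9 against 517 CPM), and HOXC and HOXD overlap.

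By position, paralog groups 9 to 13 summed to 709.9 ± 10.8 CPM in sh-control against 517 ± 23.3 CPM under the sh-RREB1 label. By cluster, their sums averaged 361 and 219 CPM in HOXA and 152 and 103 CPM in HOXB. They averaged 49.7 and 45.2 CPM in HOXC and 147 and 150 CPM in HOXD. Groups 1 to 4 were at 97.9 ± 6.23 and 104 ± 10.8 CPM and groups 5 to 8 at 162 ± 4.40 and 149 ± 15.7 CPM, with overlap between the libraries in both. Of the 16 genes of groups 9 to 13, 5 were lower and 1 was higher at an adjusted p below 0.05, against 8.81% and 10.8% of all genes tested. The median log2 fold change of the 16 was -0.17. The 5 lower genes were HOXA9, HOXA10, HOXA11, HOXB9 and HOXC13, of which all but HOXC13 were among the 10 highest HOX genes per kilobase.

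Paralog group 11 is of interest for this line because HOXA11, HOXC11 and HOXD11 act together in the metanephric kidney, where they work with EYA1 and PAX2. HOXA11 was lower and HOXC11 higher at an adjusted p below 0.05, as given above, and HOXD11 was at 11.7, 11.6 and 10.3 CPM against 11.9, 10.1 and 12.5 CPM, with overlapping groups and a log2 fold change of 0.04 (95% interval from -0.33 to 0.41). With the GC content and length offset HOXD11 was at -0.94 (adjusted p = 0.0315 by edgeR), near HOXA11 at -1.09, and the differences between the 3 genes were not tested. Their sum was 75.1, 98.5 and 98.8 CPM in sh-control against 60.6, 69.0 and 64.6 CPM in the other group.

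The GC content of HOX genes was set beside their log2 fold changes. The median over the tested HOX genes was 55.2%, beside 46.7% for 14332 expressed genes, and over those expressed genes the log2 fold change was higher at higher GC content (Spearman's rho 0.59 across genes, which share their libraries). The 2344 expressed genes with a GC content in the interquartile range of the HOX genes, 52.0% to 57.6%, were at a median of 0.35 on the log2 scale, while the HOX median was -0.08. Within HOX the coefficient with GC content was 0.18 over 38 genes. It was -0.33 in the fit with the GC content and length offset described below, so the offset reversed its sign in these genes. Relative to the rest of its group, sh-control replicate 1 had a median log2 difference of -0.25 in 8403 expressed genes that covered the HOX range of GC content, and of 0.05 in the HOX genes. Sh-RREB1 replicate 2 differed from the sh-control mean by 0.32 in those genes and by -0.16 in the HOX genes.

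When each library's trend with GC content and with exonic length was taken out as an offset, which places each gene beside genes of like composition, the HOX median became -0.40 and 29 of the 38 genes were lower. Then 5 HOX genes were called lower, against 1.20% of all genes tested, and 0 were called higher, against 1.82%. The 5 were HOXA10 (log2 fold change -1.14, adjusted p = 0.000257 by edgeR), HOXA11 (-1.09, adjusted p = 1.59e-05), HOXB9 (-1.0, adjusted p = 0.000473), HOXB13 (-1.09, adjusted p = 9.76e-05) and HOXC13 (-1.60, adjusted p = 0.000136). All of them belong to paralog groups 9 to 13. HOXB13, a factor of the tail end and the prostate, was at 14.1, 22.7 and 21.2 CPM in sh-control, against 11.7, 16.7 and 13.7 CPM in the other group. Its groups overlapped because sh-control replicate 1 was low, and without the offset its log2 fold change was -0.46 (adjusted p = 0.177 by edgeR).

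**Figure D5:**
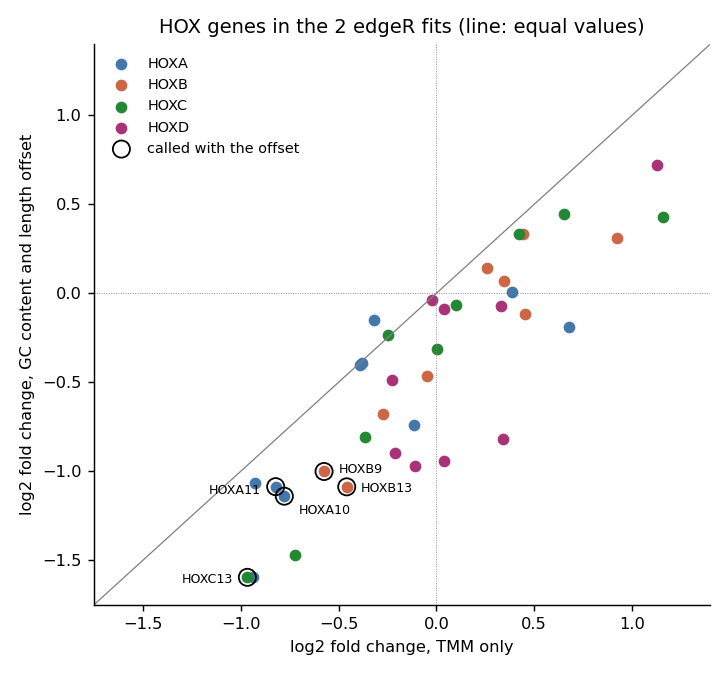
Log2 fold change of 37 of the HOX genes tested in the edgeR fit with TMM scaling (horizontal axis) and in the fit with the GC content and length offset (vertical axis), coloured by cluster, with a line at equal values. Rings mark the 5 genes called with the offset. Most points lie below the line, and the median over all 38 tested moved from -0.08 to -0.40.

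With the offset and each library left out in turn, 3 to 8 HOX genes were called. In the same fits 459 to 713 of the 22504 to 22998 genes tested were called. HOXA11, HOXB13 and HOXC13 were called in all 6 of these fits, HOXA10 in 5 and HOXB9 in 4. The fit without sh-RREB1 replicate 2 called the fewest and the fit without sh-control replicate 3 the most. HOXB4 was not stable to the offset, as its log2 fold change went from 0.92 to 0.31 (adjusted p = 0.248 by edgeR), while HOXC11 kept 0.45 (adjusted p = 0.0165 by edgeR). The HOXB and HOXD medians turned from 0.26 to -0.12 and from 0.04 to -0.49. Whether the GC content trend accounts for the differences was not tested beyond these fits.

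Long noncoding RNAs lie among the HOX genes, often antisense to them, and the strand-specific counts separate the 2 strands. Of 18 such genes and readthrough genes listed, 14 were tested and 0 were called, with 6 at an unadjusted p below 0.05 (34.4% of all genes). DESeq2 called 2 of them, beside 1647 of all 23304 genes. HOXA11-AS, which overlaps HOXA11 on the other strand, was at 4.66, 7.69 and 8.91 CPM in sh-control, against 2.90, 3.10 and 2.86 CPM under the sh-RREB1 label. The groups did not overlap, and its log2 fold change was -1.26 (SE 0.26, adjusted p = 0.0124 by edgeR), the same sign as HOXA11. HOXC13-AS was at 1.13, 1.88 and 1.68 CPM against 0.645, 0.803 and 0.634 CPM, with a log2 fold change of -1.16 (adjusted p = 0.0262 by edgeR), the same sign as HOXC13. HOTAIR, a noncoding RNA between HOXC11 and HOXC12 known for binding Polycomb, was at 13.1, 14.5 and 15.8 CPM against 8.95, 8.72 and 9.36 CPM (log2 fold change -0.69, adjusted p = 0.0179 by edgeR), the opposite sign to both neighbours.

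HOXA-AS2 and HOXB-AS3 were higher, with log2 fold changes of 0.65 and 1.06 (adjusted p of 0.0361 and 0.0471 by edgeR). With the offset HOXA11-AS, HOXC13-AS and HOXA-AS3 were called lower, at -1.83, -1.52 and -1.01 (adjusted p of 2.97e-05, 0.00133 and 0.00141 by edgeR). Over all genes tested, 1.20% were called lower with the offset. The abundant RNA of the HOXD side, HAGLR, had a log2 fold change of -0.01 (adjusted p = 0.973 by edgeR).

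Genes just outside the clusters were listed to see whether the HOXA difference stopped at its borders. Of 16 such genes 15 were tested and 0 were called, and 6 had an unadjusted p below 0.05, beside the same 34.4%. At an adjusted p below 0.05, 4 were lower and 0 higher, against 8.81% and 10.8% of all genes. HIBADH and TAX1BP1, which lie beyond the 5′ end of HOXA, had log2 fold changes of -0.68 and -0.67 (adjusted p of 0.00588 and 0.00529 by edgeR). SKAP2, beyond its 3′ end, was at -0.21 (adjusted p = 0.580 by edgeR). CALCOCO2 near HOXB and MTX2 near HOXD were at -0.61 and -0.52 (adjusted p of 0.00742 and 0.0319 by edgeR). The most abundant, HNRNPA1 near HOXC, was at 0.04.

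HOX proteins bind DNA with TALE homeodomain cofactors of the PBX, MEIS and PKNOX families. All 9 listed were tested and 0 were called, with 4 at an unadjusted p below 0.05 (34.4% of all genes). DESeq2 called 1 of them, beside 1647 of all 23304 genes. PBX2 was at 17.8, 26.1 and 25.8 CPM in sh-control, against 36.4, 44.8 and 40.0 CPM in the other group, with a log2 fold change of 0.80 (adjusted p = 0.0172 by edgeR). MEIS3 had 1.39 (adjusted p = 0.0379 by edgeR), and 0.40 with the offset. Among the cofactors of highest level, MEIS2, PBX3 and MEIS1 had log2 fold changes of -0.11, -0.44 and -0.29, with adjusted p of 0.563, 0.0758 and 0.102 by edgeR.

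Among 40 listed regulators of HOX genes 38 were tested, and 3 were called higher and 1 lower, a share to be read beside the 3.41% of all genes called. DOT1L, the H3K79 methyltransferase, was at 1.87, 3.97 and 3.49 CPM in sh-control, against 8.58, 10.7 and 8.64 CPM under the sh-RREB1 label (log2 fold change 1.57, adjusted p = 0.00742 by edgeR). KMT2B, an H3K4 methyltransferase, had 1.27 (adjusted p = 0.00854 by edgeR) and RARA, a retinoic acid receptor, 1.62 (adjusted p = 0.00517 by edgeR). With the offset these 3 were at 0.39, 0.19 and 0.41 and were not called. CYP26A1, which degrades retinoic acid, fell from 5.57, 5.30 and 4.92 CPM to 2.46, 2.37 and 2.38 CPM, with a log2 fold change of -1.13 (adjusted p = 0.00549 by edgeR), and it was called with the offset too, at -1.25.

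None of the 18 Polycomb subunits listed was called by edgeR, with 10 at an unadjusted p below 0.05 (34.4% of all genes). DESeq2 called 2 of them, beside 1647 of all 23304 genes. At an adjusted p below 0.05, 4 were higher and 4 lower, against 10.8% and 8.81% of all genes. With the offset 0 were higher and 6 lower at that threshold, against 10.4% and 11.7%. The abundant RBBP7, RBBP4 and SUZ12 had log2 fold changes of -0.61, -0.38 and -0.73 (adjusted p of 0.00520, 0.0482 and 0.0143 by edgeR), and PHC3 of 0.01. KMT2A and PSIP1, the abundant members of the MLL list, were at 0.03 and -0.25 (adjusted p of 0.911 and 0.194 by edgeR), and among the inducers ALDH1A2 and RARB were at -0.41 and -0.36 (adjusted p of 0.0343 and 0.0622 by edgeR).

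The labelled cell type was checked against 9 genes known in HEK293 cells, all of which had reads in every library. VIM was at 331, 360.1 and 329.7 CPM in sh-control, against 569, 616 and 530 CPM in the other group, and CDH2 at 103, 98.2 and 98.0 and at 93.2, 93.0 and 97.5 CPM. PAX2 was low, at 0.0935 to 0.476 CPM. EYA1, the kidney cofactor named above, rose from 9.92, 8.91 and 10.0 CPM to 32.9, 34.1 and 35.8 CPM (log2 fold change 1.83, adjusted p = 0.000670 by edgeR) and was the 1 marker called. Of 14 markers of blood, endothelium, fibroblast, liver, heart and astroglia, all 14 matched and 10 were tested, with a summed level of 5.53 to 7.01 CPM in sh-control and of 5.08 to 18.9 CPM under the sh-RREB1 label. The high value was in replicate 2, from COL3A1 at 8.45 and COL1A2 at 3.94 CPM, while CD3E had 0 reads in all libraries. COL1A1 was higher in all 3 libraries of that group, at 2.10, 2.64 and 0.952 CPM against 0.348, 0.405 and 0.686 CPM (log2 fold change 2.0, adjusted p = 0.0132 by edgeR). Replicate 2 also had the lowest HOXA sum, and the part of these transcripts in that was not tested.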

How the data were processed

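RNA from 3 sh-control and 3 sh-RREB1 HEK293T libraries was extracted with TRIzol and sequenced after TruSeq Stranded Total RNA preparation. Per the paper's methods and the file layout, the authors aligned reads with STAR 2.4.2a to hg38 with Gencode 25 annotation and deposited unnormalized counts of reads for every gene and library. Sense-strand counts were taken, and they equalled the authors' merged table for all 24635 of its identifiers. Symbols were made unique by keeping 1 identifier each. Reads in exons shared by 2 genes on a strand, and multimapping reads, are in no count.

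Genes with at least 10 reads in total were tested in edgeR 4.0.16 (R 4.3.3) with TMM scaling, a quasi-likelihood test on condition alone and Benjamini-Hochberg adjustment over all 23304 genes. CPM were reads per 1e+06 reads on genes after TMM scaling, limits of detection were 3 reads, and intervals and limits cover counting or fit error only. DESeq2 1.42.0 was the alternative tool. The offset was a spline of 5 degrees of freedom on GC content and exonic length in each library, from Gencode 44. On simulated counts with 200 genes changed by a log2 fold of 2, edgeR recovered 99% and called 4 unchanged genes of 22850. The simulated spread between libraries was capped and held no trend with GC content. These values therefore check the procedure and do not give the power or error rate for the smaller HOX differences in these libraries. The columns of fold changes and p-values of the authors, where deposited, were not used.

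Other alternatives were DESeq2 size factors, library size only, a minimum of 1 read, filterByExpr, both strands together, the merged table, a replicate block and leaving out each library. Leaving out each library together with the offset, and a looser threshold with the offset, were added after seeing the data. The members, gene lists and tests were chosen with earlier results of these data known. Members were named in full if called, if below an adjusted p of 0.05, if beyond an absolute log2 fold change of 1, or if among the 10 highest per kilobase. In the other lists called genes and up to 4 of the highest level were named by rule, and the noncoding RNAs, flanking genes, PBX2, MEIS3, VIM, PAX2, COL1A1, COL3A1 and COL1A2 named beside them were chosen after their values were seen. Values of 1 HOX gene and 1 cofactor are not reported here, though both remain in the fits, counts and sums.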

Additional observations from a re-analysis of the deposited data

How the results depend on the processing

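Calls depended on the scaling and on single libraries. The number of HOX genes called was 0 in edgeR, 1 with library size only (HOXB4), 5 with the GC content and length offset, 9 at an adjusted p below 0.05, 15 at that threshold with the offset, and 0 to 8 with a library left out (3 to 8 of these with the offset, 0 to 1 without). Of all genes, 794 were called, against 1647 in DESeq2, 1801 with a minimum of 1 read and 1684 with the replicate block. At an adjusted p below 0.05 there were 4567, and 5156 at that threshold with the offset. With a library left out 8 to 1117 were called, and 459 to 713 when the offset was added. Library size only moved the median of all genes to 0.09, so its HOX values are to be read against that shift.

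The HOX median log2 fold change was 0.00368 with library size only and -0.40 with the offset. Leaving out a library gave -0.14 to -0.00566 without the offset and -0.51 to -0.25 with it. The HOXA median stayed negative, at -0.51 with the offset. Its range with a library left out was -0.51 to -0.36 without the offset and -0.57 to -0.34 with it. The HOXB median was -0.12 with the offset. Its range with a library left out was 0.17 to 0.33 without the offset and -0.37 to 0.12 with it. The HOXC median was 0.0834 with library size only, 0.11 with filterByExpr and -0.24 with the offset. Its range with a library left out was -0.0802 to 0.0300 without the offset and -0.37 to -0.0525 with it. The HOXD median was -0.49 with the offset. Its range with a library left out was -0.0433 to 0.0953 without the offset and -0.65 to -0.33 with it.

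Noncoding genes called were 2 in DESeq2, 2 with a minimum of 1 read, 3 with the offset and 5 at an adjusted p below 0.05. Leaving out a library gave 0 to 2 without the offset and 2 to 3 with it. Flanking genes were 4 at an adjusted p below 0.05. TALE cofactors were 1 in DESeq2, 1 with a minimum of 1 read and 2 at an adjusted p below 0.05. Regulators were 8 in DESeq2, 8 with a minimum of 1 read, 1 with the offset and 18 at an adjusted p below 0.05. Leaving out a library gave 0 to 4 without the offset and 1 with it. Of single genes, HOXB6 turned to 0.0361, 0.0127 and 0.0527 with library size only, filterByExpr and both strands. It ran from -0.22 to 0.0312 with a library left out, and from -0.56 to -0.34 when the offset was added. HOXD10 turned to 0.0553 and 0.0336 with library size only and filterByExpr. It ran from -0.0900 to 0.0134 with a library left out, and from -0.11 to 0.0815 when the offset was added. HOXD13 was -0.0905 with the offset. With a library left out HOXD13 ran from -0.0540 to 0.12, and from -0.25 to 0.0641 when the offset was added. HOXD1 ran from 0.44 to 1.64 with a library left out, and from -0.0545 to 1.25 when the offset was added. The cause of these changes was not tested.

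The labels do not say whether the replicate numbers pair the libraries. Same-numbered libraries had correlations of their deviations of 0.50, 0.43 and -0.28 over 14332 genes, which do not settle it, so the block was used as an alternative only. With the replicate block 0 HOX genes were called, 11 had an adjusted p below 0.05, and 2 noncoding genes, 1 TALE cofactor and 8 regulators were called. With the block and the offset together 6 HOX genes, 3 noncoding genes and 1 regulator were called, beside 869 of all 23304 genes tested. The HOX, HOXA, HOXB, HOXC and HOXD medians were then -0.41, -0.51, -0.16, -0.25 and -0.51, and HOXD13 was at -0.10. Depth limits HOXB1, HOXC5, HOXC12, HOXD1, HOXD4 and HOXD12, for which 0 to 70 reads were counted over all libraries.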

Other observations

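Reads on the strand opposite to a HOX gene were counted separately. HOXA2 had 193 opposite-strand reads beside 481 on its own strand, 28.6% of both, with no annotated exon on that strand. They were at 1.58 ± 0.157 CPM in sh-control and 1.04 ± 0.137 CPM under the sh-RREB1 label (SD, n = 3 each), and the groups did not overlap, with no test made. HOXA7 had 42.6% of its reads on the opposite strand, where HOXA-AS3 is annotated, at 2.48 ± 0.803 and 1.81 ± 0.192 CPM, which overlapped. HOXB5 had 24.6%, where HOXB-AS3 is annotated, at 1.35 ± 0.0975 and 1.79 ± 0.0917 CPM, which did not overlap.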
